A study of Mus musculus with 70 samples.

Results

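The 9 genes described here encode subunits of ionotropic glutamate receptors, namely Gria1, Gria2, Gria4, Grin1, Grin2a, Grin2b, Grik1, Grik2 and Grik3, out of 20807 autosomal protein-coding genes. They were chosen by name as members of the receptor family, with earlier results of these data known. The other subunits of the family were listed apart and are described further on. Chromatin interactions of the 9 genes were taken as every called pair of 10-kb bins in which an end held an annotated transcription start site (TSS) of the gene, over 21 such bins. The interactions came from H3K4me3 PLAC-seq, which captures ligation junctions at chromatin carrying histone H3 lysine 4 trimethylation, a mark of active and poised promoters, and CTCF ChIP-seq was available for the same tissue-stages. At embryonic day 12.5 (E12.5) the neural tissues were the forebrain (FB), midbrain (MB), hindbrain (HB) and neural tube (NT), and the non-neural tissues were the liver (LV), limb (LM) and craniofacial prominence (CF). FB was also collected daily from E13.5 to E16.5 and on the day of birth (P0). By the study's account collection was from female C57BL/6N mice, meaning pregnant dams for the embryos, and the sex of the staged animals was not assessed. All tissues were dissected in bulk, so they mix neurons with every other cell of the tissue. Each of the 12 tissue-stages had 2 PLAC-seq replicates. Because the tissue was bulk, fewer cells of a type and fewer interactions per cell cannot be told apart.

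Ionotropic glutamate receptors are ligand-gated cation channels that carry most fast excitatory transmission in the brain. AMPA receptors, built from the Gria subunits, give the fast current, and the GluA2 subunit encoded by Gria2 makes them largely impermeable to calcium after its RNA is edited. NMDA receptors need the obligatory Grin1 subunit together with Grin2 subunits, pass calcium, and shift in the rodent forebrain from a Grin2b-rich to a more Grin2a-rich composition after birth. Kainate receptors, built from the Grik subunits, act on both sides of the synapse and tune transmitter release. The zinc finger factor CTCF recognises an oriented DNA motif and, with cohesin, holds chromatin loops, typically where a pair of motifs point at each other.

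The sequences of 11 CTCF peaks at ends of these interactions are shown because the position and the direction of the motif can be read beside the interactions described further on. Each runs from 50 bases before to 50 bases after the peak summit on the plus strand of GRCm38 (mm10), from the RefSeq genome. Capitals mark a 12-letter core that begins with CC, has AG after 3 free letters and ends with GGC after 2 more, searched on both strands, or its reverse complement where the core lies on the minus strand.
Grin2b TSS bin, chr6:136173647-136173747: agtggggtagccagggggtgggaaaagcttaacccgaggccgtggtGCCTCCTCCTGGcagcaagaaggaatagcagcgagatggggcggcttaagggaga
Grik2 TSS bin, chr10:49788775-49788875: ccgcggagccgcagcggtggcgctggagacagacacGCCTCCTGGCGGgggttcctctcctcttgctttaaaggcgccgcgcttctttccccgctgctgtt
Grik3 partner 260 kb upstream, chr4:125231832-125231932: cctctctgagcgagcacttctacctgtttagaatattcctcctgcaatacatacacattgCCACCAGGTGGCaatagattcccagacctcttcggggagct
Grik3 partner 420 kb downstream, chr4:125912796-125912896: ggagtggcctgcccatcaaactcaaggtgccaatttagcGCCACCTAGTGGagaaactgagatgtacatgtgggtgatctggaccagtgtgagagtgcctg
Grik3 partner 470 kb downstream, chr4:125962907-125963007: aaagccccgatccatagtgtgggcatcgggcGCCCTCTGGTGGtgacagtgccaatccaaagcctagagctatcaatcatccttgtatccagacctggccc
Gria1 partner 880 kb upstream, chr11:56131380-56131480: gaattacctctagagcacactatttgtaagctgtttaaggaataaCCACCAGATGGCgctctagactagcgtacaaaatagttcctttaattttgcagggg
Gria1 partner 300 kb downstream, chr11:57310938-57311038: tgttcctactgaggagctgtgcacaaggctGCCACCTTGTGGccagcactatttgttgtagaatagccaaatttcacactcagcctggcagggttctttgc
Gria2 partner 730 kb downstream, chr3:80079906-80080006: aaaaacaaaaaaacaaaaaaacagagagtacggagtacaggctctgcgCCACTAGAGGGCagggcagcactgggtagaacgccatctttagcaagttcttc
Gria2 partner 980 kb upstream, chr3:81783385-81783485: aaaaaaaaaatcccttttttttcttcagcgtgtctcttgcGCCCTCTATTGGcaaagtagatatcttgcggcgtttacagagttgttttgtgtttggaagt
Grin2b partner 730 kb downstream, chr6:135444711-135444811: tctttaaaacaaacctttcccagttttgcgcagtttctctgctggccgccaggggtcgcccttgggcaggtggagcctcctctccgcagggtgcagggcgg
Grin2a partner 990 kb downstream, chr16:9009564-9009664: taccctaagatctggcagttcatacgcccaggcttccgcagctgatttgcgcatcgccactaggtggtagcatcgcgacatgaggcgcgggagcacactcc
The core lay on the minus strand at the Grin2b and Grik2 start sites, which is the coding strand of both genes. At every Grik3, Gria1 and Gria2 partner shown, the core read towards the TSS of the gene, with the plus-strand core at the lower and the minus-strand core at the higher coordinate. The last pair of windows, at the most recurrent partners of Grin2b and Grin2a, did not hold these letters, which says only that this spelling was absent. Across the 12 tissue-stages, 40.7% to 47.3% of all autosomal CTCF peaks held the core within this window, against 1.66% to 1.86% of windows 2 kb away.

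The 24 replicate call sets held 11396 to 63868 interactions, with a median of 25872. Library totals differed between the groups compared, with 16075 to 33700 interactions in neural against 11396 to 20775 in non-neural E12.5 libraries. They were 35291 to 63868 in FB at E16.5 and P0 against 16075 to 30876 in FB at E12.5 and E13.5. Numbers per gene were therefore scaled to the median library total before testing. The 12 pooled call sets, for which the authors had combined the replicates and downsampled them to equal read numbers, held 51264 to 79677 interactions apart from LV with 21945. LV libraries also stood apart in distance, with 63.7% and 66.8% of their interactions within 200 kb. Marker genes followed the labels for most tissues: the summed pooled number of 10 forebrain genes was 496 in FB against 46 to 315 in the other E12.5 tissues, and 10 craniofacial genes summed to 319 in CF. In LV, 10 hepatocyte genes summed to only 5 interactions against 3 to 7 elsewhere at E12.5, with Alb and Serpina1a at 0 in every tissue-stage, while 8 erythroid genes summed to 42 in LV against 7 to 19.

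The receptor genes differed widely in their number of interactions. Of the 996 interactions found over the 12 pooled sets, Grik3 held 372, Gria2 217, Grin2b 127, Grin2a 118 and Gria1 104, whereas Grik1 had 29, Grik2 20, Grin1 7 and Gria4 2. At P0 the numbers were 51 for Grik3, 36 for Grin2a, 33 for Gria1, 33 for Gria2 and 26 for Grin2b, which placed Grik3 at rank 89 and Grin2b at rank 431 of the 20807 genes. In the pooled and the replicate sets a TSS-distal pair that was not called has no value. It was either below the threshold or not tested because neither end held an H3K4me3 peak in that tissue.

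**Figure D1:**
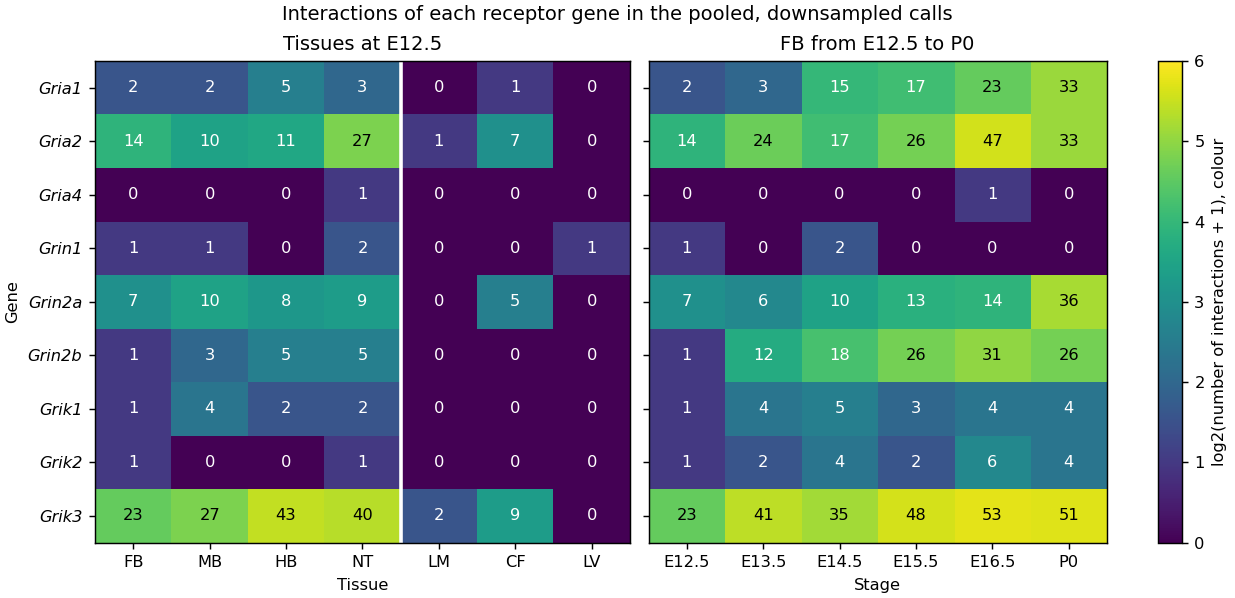
Number of interactions of each receptor gene (rows) in the pooled, downsampled calls of the E12.5 tissues (left; neural tissues left of the white line, non-neural tissues right of it) and of FB from E12.5 to P0 (right), printed in each cell and coloured on a log2 scale. Grik3 has 23 interactions in FB already at E12.5, whereas Grin2b has 1 there and 26 at P0, and LV holds 1 interaction in all.

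Among the AMPA receptor genes, Gria1 had 2, 3, 15, 17, 23 and 33 pooled interactions in FB over the 6 stages in order from E12.5 to P0. At E12.5 it had 2 in MB, 5 in HB and 3 in NT, against 0 in LM, 1 in CF and 0 in LV. Gria2 had 14, 24, 17, 26, 47 and 33 interactions over the same FB stages, so that its number was highest at E16.5. In the other neural tissues Gria2 had 10 in MB, 11 in HB and 27 in NT, against 1 in LM, 7 in CF and 0 in LV. Gria4, whose subunit is prominent in cerebellar and brainstem neurons, had 1 interaction in NT, 1 in FB at E16.5 and none elsewhere.

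Among the NMDA receptor genes, Grin2a and Grin2b had 118 and 127 interactions in all, and Grin1 had 7. Grin1, the subunit common to all NMDA receptors, had 0 to 2 interactions in every tissue-stage, and none of the 7 ended in the bin of its gene start. Grin2b had 1, 12, 18, 26, 31 and 26 interactions in FB over the 6 stages, with 3 in MB, 5 in HB and 5 in NT against 0 in LM, CF and LV. Grin2a had 7, 6, 10, 13, 14 and 36 interactions over the FB stages, so that the largest step came at P0, in sets of equal read number. In the other E12.5 tissues Grin2a had 10 in MB, 8 in HB and 9 in NT, against 0 in LM, 5 in CF and 0 in LV.

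The kainate receptor genes were led by Grik3 in every tissue-stage that held any of their interactions. Grik3 had 23, 41, 35, 48, 53 and 51 interactions in FB over the 6 stages, and 27 in MB, 43 in HB and 40 in NT against 2 in LM, 9 in CF and 0 in LV. Grik1 had 1, 4, 5, 3, 4 and 4 interactions over the FB stages. Grik2 had 1, 2, 4, 2, 6 and 4 over the same stages. Neither Grik1 nor Grik2 had an interaction in a non-neural tissue.

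Interactions called for Grik3, Gria2 and Grin2a were more numerous in neural than in non-neural tissues at E12.5. A 0 in a non-neural library can also mean that the pairs were not tested there, for want of an H3K4me3 peak. To compare tissues the paper called interactions anew on the union of H3K4me3 peaks, and those calls were not used here. In the 8 neural libraries the number for Grik3 was 13 at the lowest, 19.5 at the median and 43 at the highest, against 0, 0 and 2 in the 6 non-neural libraries. The groups did not overlap, and the only non-neural libraries with any were those of CF, with 2 and 1. The scaled number averaged 22.4 ± 5.30 (SD, n = 8) in neural and 0.706 ± 1.19 (SD, n = 6) in non-neural libraries, a difference of 3.98 (SE 0.35) on the scale of log2(scaled number + 1), with an adjusted p of 1.5e-07 by limma.

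Gria2 had 2, 3.5 and 9 interactions as the lowest, median and highest of the neural libraries, against 0 in each of the 6 non-neural libraries. The difference was 2.44 (SE 0.34) on the same log2 scale, which depends on the added 1 because one side was at 0 throughout, with a limma adjusted p of 5.28e-05. Grin2a had 0, 2.5 and 4 interactions as the lowest, median and highest neural values, against 0, 0 and 1 in non-neural libraries. These groups overlapped, since replicate 2 of FB had none and replicate 1 of CF had 1. The difference for Grin2a was 1.48 (SE 0.41) on the log2 scale with a limma adjusted p of 0.0152.

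Of the 5389 genes tested in this comparison, 18.9% were called at the adjusted p threshold of 0.05, 12.4% as higher in neural tissues, and 6.51% as lower, and every neural library lay above every non-neural library for 3.32%. Only 3 of the 9 receptor genes reached the minimum mean scaled number of 1, and they reached it through the neural libraries, so their being called adds little to the filter itself. The other 6 were not tested. Among them Grin2b had 0 to 3 interactions in neural libraries, with 2 and 3 in HB and 1 and 3 in NT, against 0 in all 6 non-neural libraries. Gria1 was seen in 1 library of MB only. Leaving out LV, with the fewest pooled calls and short distances, gave 3.72 for Grik3, 2.44 for Gria2 and 1.37 for Grin2a, each still called. With the mean of each tissue as the unit, Grin2a was no longer called (adjusted p = 0.106).

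**Figure D2:**
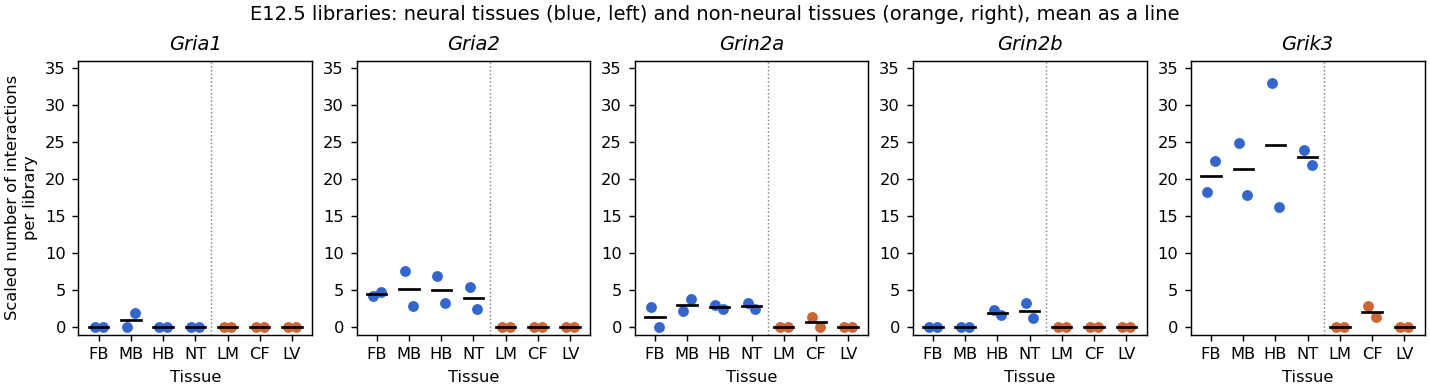
Scaled number of interactions per replicate library (points; blue, the 4 neural tissues on the left; orange, the 3 non-neural tissues on the right; line, mean of the 2 replicates) for 5 receptor genes at E12.5. Grik3 lies between 16.3 and 33.0 in the neural libraries and between 0 and 2.87 in the non-neural libraries.

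Marker genes of neurons and of neural progenitors moved in the same direction. Of 10 neuronal markers, 4 were tested and 3 (Rbfox3, Myt1l and Neurod1) were called higher in neural tissues. All 3 were at 0 in the non-neural libraries and passed the filter through the neural ones. The 9 autosomal markers summed to 50 to 145 pooled interactions in neural against 4 to 11 in non-neural tissues. The defining genes Tubb3 and Snap25 had no interaction in any of these neural tissues. Of the progenitor markers 3 of 8 tested were called higher, namely Pax6 (4.07), Sox2 (3.57) and Sox1 (2.87) on the log2 scale, and their pooled sum was 156 to 228 in neural against 19 to 114 in non-neural tissues. Of 4 glial markers tested Olig2 was called higher (2.09) and Pdgfra lower (-1.10). Olig2 averaged 4.72 in neural and 0 in non-neural libraries and passed the filter through the neural ones. The part of these cell types in the receptor gene difference was not tested.

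Gria1, Gria2 and Grin2b gained interactions in FB between the early stages, E12.5 and E13.5, and the late stages, E16.5 and P0. Grin2b had 15, 20, 20 and 22 interactions in the late libraries, against 0, 0, 3 and 1 in the early libraries. The groups were far apart, and both E12.5 libraries were at 0, which can also mean that the pairs were not tested there. Its scaled number averaged 11.6 ± 2.67 in late and 0.867 ± 1.19 in early libraries (SD, n = 4 each), a log2 difference of 2.93 (SE 0.40) with a limma adjusted p of 0.00141.

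Gria2 had 29, 38, 29 and 29 interactions in the late libraries, against 3, 3, 8 and 3 in the early libraries, with no overlap. Scaled numbers averaged 19.3 ± 6.31 in late and 4.65 ± 1.60 in early libraries (SD, n = 4 each). The log2 difference was 1.83 (SE 0.28) with a limma adjusted p of 0.00185. Gria1 had 8, 5, 24 and 18 interactions in the late libraries, against 0, 0, 1 and 2 in the early libraries. The P0 libraries carried the highest numbers, and the log2 difference was 2.38 (SE 0.44) with a limma adjusted p of 0.00553.

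Grin2a and Grik3 were tested and not called. Grin2a had 5 and 5 interactions at E16.5 and 26 and 18 at P0, against 2 and 0 at E12.5 and 5 and 3 at E13.5. Only the P0 libraries stood above all the early libraries. The log2 difference over the 4 late libraries was 1.31 (SE 0.49) with a limma adjusted p of 0.0864. Grik3 had 37, 44, 50 and 42 interactions in the late libraries, against 13, 14, 32 and 34 in the early libraries. Once scaled to library totals these overlapped, with 20.3 to 30.9 in late and 18.3 to 32.4 in early libraries, and the log2 difference was 0.06 (SE 0.23, limma adjusted p = 0.878).

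In this comparison 13.4% of 5376 genes were called, 8.65% as higher and 4.8% as lower at the late stages, and late libraries lay entirely above early libraries for 9.97%. Of the 9 receptor genes 5 were tested, and those called were 3. Grin2b and Gria1 averaged under 1 in the early libraries and reached the minimum through the late ones, so their being called adds little to the filter itself. Library totals did not overlap between the late and the early stages, and an equal number of the calls with the lowest false discovery rate (FDR) from each library, an alternative chosen after seeing the data, called the same 3 genes at adjusted p values of 0.00907 for Grin2b, 0.0130 for Gria2 and 0.00703 for Gria1. With the 2 stage means of each side as the unit none of the 3 was called (adjusted p = 0.0533 for Grin2b, 0.0556 for Gria2 and 0.0881 for Gria1), as was the case for all but 1 of the 5376 genes, and without scaling Grin2a (2.00, adjusted p = 0.0349) and Grik3 (0.99, adjusted p = 0.0319) were called as well.

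**Figure D3:**
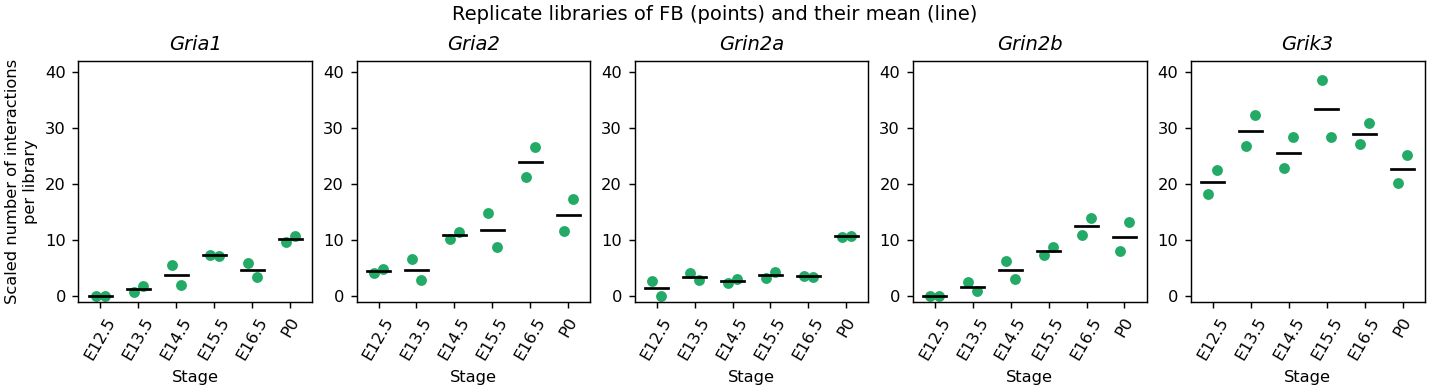
Scaled number of interactions per replicate library of FB (points) and their mean (line) from E12.5 to P0 for 5 receptor genes. Grin2b is at 0 in both E12.5 libraries and between 8.10 and 14.1 at E16.5 and P0, Grin2a stays below 4.4 until P0, and Grik3 shows no trend.

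Between neighbouring FB stages the replicate spread was often as wide as the step. Gria2 had scaled numbers of 10.3 and 11.6 at E14.5, 14.8 and 8.74 at E15.5, 21.3 and 26.7 at E16.5, and 11.7 and 17.5 at P0. Its E14.5 values thus lay within the range of E15.5, while both E16.5 values lay above all others. Grin2b had 6.32 and 3.16 at E14.5, 7.40 and 8.74 at E15.5, and 8.10 and 13.2 at P0, with 14.1 as the highest value at E16.5. Its last 2 stages overlapped. Grin2a had 3.67 and 3.52 at E16.5 and 10.5 and 10.8 at P0, a step much wider than the gap between the replicates of either stage, which was not tested.

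Marker genes of cell types changed over the same stages. Of the neuronal markers 2 of 5 tested (Myt1l and Map2) were called higher at the late stages. Map2 averaged 0.589 in the early libraries and passed the filter through the late ones. The pooled sum over 9 neuronal genes was 186 and 189 at E16.5 and P0 against 50 and 94 at E12.5 and E13.5, with Tubb3 at 0 throughout. Of the neural progenitor markers 4 of 8 tested (Pax6, Sox2, Sox1 and Msi1) were called lower, and their sum was 150 and 160 against 228 and 193. Of the glial markers 2 of 5 tested, Olig2 (-2.53) and Pdgfra (-0.88), were called lower. Olig2 averaged 0.72 in the late and 8.76 in the early libraries and passed the filter through the early ones. The glial list summed to 55 and 73 at the late against 68 and 74 at the early stages, with Aqp4 and Sox10 at 0. The part of these cell types in the receptor gene differences was not tested.

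At E12.5 no receptor gene was called between FB and the other neural tissues, a comparison that asks whether these contacts differ along the neural axis. The 2 FB libraries held 13 and 14 interactions of Grik3, against 18 to 43 with a median of 21 in the 6 libraries of MB, HB and NT, and 3 and 3 interactions of Gria2, against 2 to 9 with a median of 4.5. On the log2 scale the differences were -0.14 (SE 0.28) for Grik3 and 0.03 (SE 0.41) for Gria2. Grin2b was at 0 in both FB libraries, against 0 to 3 in the others, with 0 in MB also. The differences were -1.06 (SE 0.67) for Grin2b and -0.97 (SE 0.50) for Grin2a, with limma adjusted p values of 0.401 and 0.308. None of the 4 genes tested had an unadjusted p under 0.05, edgeR called 0 of them, and 3.17% of 4987 genes were called, 0.742% as higher and 2.43% as lower in FB, with FB wholly above the other tissues for 7.28%. With 2 FB libraries, differences well above these SEs of 0.28 to 0.67 on the log2 scale could also be missed. Of 4 neuronal markers tested, Neurod1 was called lower in FB near the threshold (-2.05, SE 0.53, limma adjusted p = 0.045). It averaged 0 in FB and 3.51 in the other neural libraries, through which it passed the filter. Called higher in FB were 2 of 8 progenitor markers (Pax6 and Sox1) and 5 of 9 forebrain markers. Of the markers of other regions, Gata3 and Tbx5 were called lower and Dlx6 higher.

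**Figure D4:**
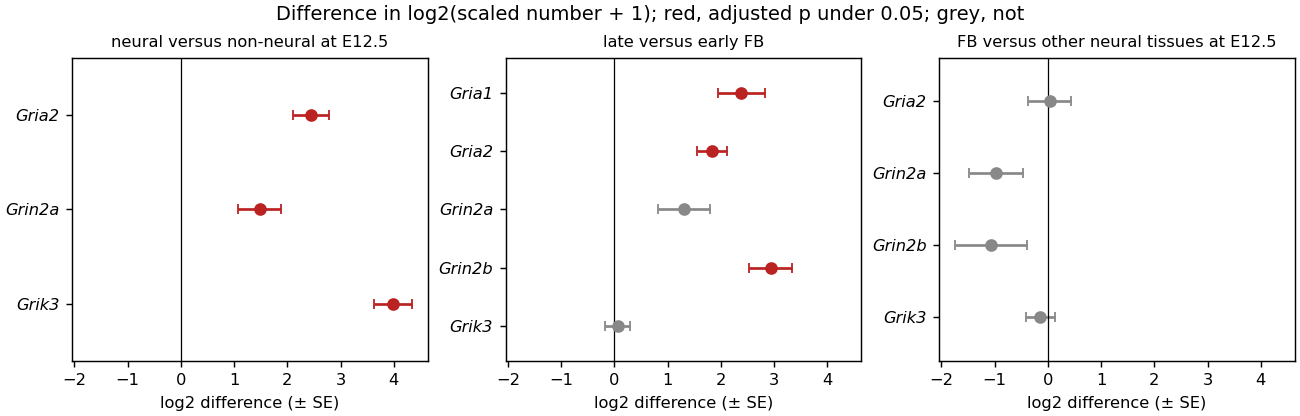
Difference in log2(scaled number + 1), with its SE, for each receptor gene that passed the filter in the 3 comparisons (left, neural minus non-neural at E12.5; middle, late minus early FB; right, FB minus other neural tissues at E12.5). Red points have an adjusted p under 0.05; Grik3 is at 3.98 on the left, 0.06 in the middle and -0.14 on the right.

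Other genes of the glutamatergic synapse were read from lists that surround the receptor genes, and these lists hold many genes with too few interactions to test. Over all genes tested in late against early FB, 8.65% were called higher and 4.8% lower. In late against early FB, 3 of 7 tested auxiliary subunits of AMPA and kainate receptors were called higher and none lower, namely Shisa9 (2.77), Cacng3 (1.57) and Cacng4 (1.52, a TARP that traffics AMPA receptors) on the log2 scale. The postsynaptic scaffolds and kinases had 3 of 10 tested genes called higher, namely Dlg2 (2.26), Homer1 (1.87) and Shank2 (1.49), which anchor glutamate receptors in the postsynaptic density. The median log2 difference was 0.84 for the auxiliary subunits and 0.64 for the scaffolds, beside 0.15 for all genes tested. Of the remaining ionotropic subunits 5 were tested, none was called higher and Grin3b was called lower (-1.29). Their median log2 difference was -0.12, beside 1.83 for the 5 tested genes of the main set. That set was chosen with earlier results known, and Grin2b and Gria1 passed the filter through the late libraries. The contrast of these medians is therefore not a result about the family. Slc1a2, the main astroglial glutamate transporter, was called higher (1.62) among 6 tested genes of transport and synthesis. Gabrb2 (1.81) and Gabrg3 (1.57), subunits of GABA-A receptors, the inhibitory counterpart, were also called higher, each with 0 in all early libraries. Every gene named here as higher averaged under 1 in the early libraries and reached the minimum through the late ones. Their being called thus adds little to the filter itself, and they also enter the medians of their lists.

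In neural against non-neural tissues, 12.4% of all genes tested were called higher and 6.51% lower. The kainate receptor subunits Grik5 (1.82) and Grik4 (1.75) were called higher among 5 tested other subunits. Slc17a6, the vesicular glutamate transporter of subcortical and early neurons, showed 4.17 on the log2 scale, with mean scaled numbers of 19.8 in neural against 0.208 in non-neural libraries. Shisa8 (1.49) and Gsg1l (1.51) were called higher among 4 auxiliary subunits, and Grm4 (1.20), the only metabotropic receptor tested, was called higher too. Homer1 (-1.95) and Dlg1 (-1.12), 2 of 6 scaffolds tested, were called lower in neural tissues. Slc17a6, Grik5 and Shisa8 averaged under 1 in the non-neural libraries, and Homer1 under 1 in the neural ones. These genes passed the filter through the other side, so their being called adds little to it. In FB against the other neural tissues none of the tested genes in these lists was called.

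The partners of the receptor genes lay farther away than usual. The median distance was 440 kb, with 40.9% of the 996 interactions beyond 500 kb and 9.24% within 200 kb, whereas over all interactions of protein-coding TSS bins the median was 270 kb, with 21.4% beyond 500 kb and 36.5% within 200 kb. Grin1 had a median of 110 kb and 5 of its 7 interactions within 200 kb. Grik3, with 372 of the 996 interactions, had a median of 310 kb and only 0.27% beyond 500 kb. Beyond that distance lay 78.3% of the interactions of Gria2 and 83.1% of those of Grin2a. Only 5.32% of the receptor gene interactions had a protein-coding TSS in the partner bin, against 35.5% of all. No test was run on these pooled values, which come from 1 call set per tissue-stage. Distant pairs carry few reads: beyond 500 kb the median call of all genes had 14 read pairs where 3.02 were expected, against 34 read pairs where 12.3 were expected within 200 kb, so that high ratios at long distance rest on small counts.

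**Figure D5:**
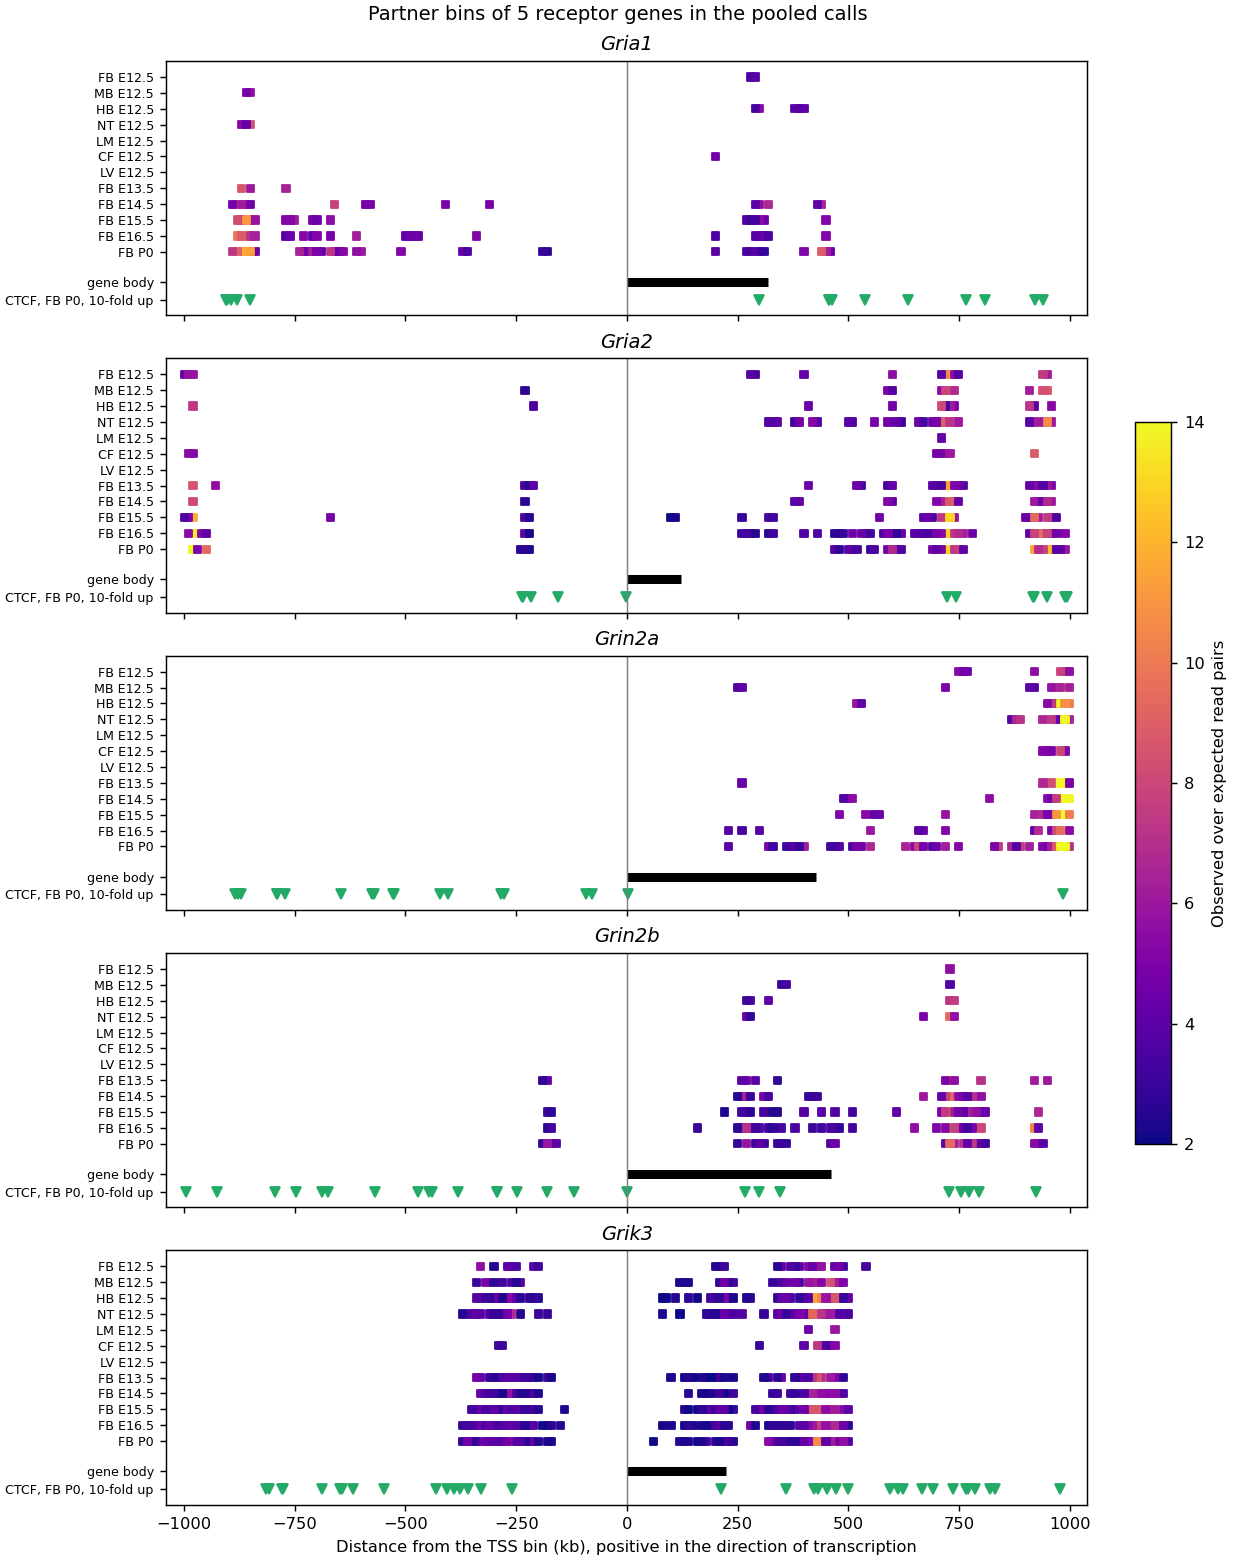
Distance of each partner bin from the TSS bin (kb, positive in the direction of transcription) for 5 receptor genes, with a square for each pooled interaction in each tissue-stage (rows) coloured by observed over expected read pairs. Black bars mark the gene body and green triangles CTCF peaks of FB at P0 of at least 10 times the input; Grin2a partners lie only downstream and gather near the 1000-kb limit, and Grik3 partners lie on both sides within 540 kb.

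Gria1, on chr11:57011387-57330244 (plus strand), reached mainly upstream into a region without protein-coding genes, with 69 of its 104 interactions upstream and 24 in its own gene body. Its most recurrent partner was chr11:56160001-56170000, 850 kb upstream, called in 7 tissue-stages with 10 read pairs in MB, 14 in NT and 11, 9, 15, 16 and 24 in FB from E13.5 to P0. The ratio of observed to expected was 11.4 at P0 and 4.70 to 8.42 in the other 6. No CTCF peak had its midpoint in that bin in any tissue-stage, but the next bin, 860 kb upstream, held a peak in all 12, at 9.87 to 45.8 times the input, close to the shared border. The block of 6 adjacent bins from 840 to 890 kb upstream, which also holds the plus-strand core printed for 880 kb, took 28 of the 104 interactions.

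Gria2, on chr3:80681450-80802835 (minus strand), had 78.3% of its 217 interactions beyond 500 kb and 84.8% downstream, past the end of the gene. Its most recurrent partner, chr3:80090001-80100000 at 710 kb, was called in 11 tissue-stages, including LM and CF with 10 read pairs each. In FB it had 10, 10, 22, 24, 23 and 18 read pairs from E12.5 to P0. A CTCF peak present in all 12 tissue-stages, with a plus-strand core, straddled the border between the bins at 720 and 730 kb, so that its midpoint fell in the bin at 720 kb in 4 tissue-stages and in the bin at 730 kb in 8. A second block, 900 to 990 kb downstream, took 48 interactions and held the start sites of Fam198b and Tmem144. Upstream, 19 interactions ended 930 to 1000 kb away around the minus-strand core printed for 980 kb, and 13 ended 210 to 240 kb away near Pdgfc, a growth factor gene.

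Grin2a, on chr16:9567898-9995560 (minus strand), had all 118 interactions downstream, 83.1% of them beyond 500 kb. The bin chr16:9000001-9010000 at 990 kb was called in 10 tissue-stages, with 31 read pairs in MB, 22 in HB and 41 in NT, against 9 in CF. In FB it had 15, 25, 28, 31, 44 and 50 read pairs from E12.5 to P0, and the ratio was 20.8 at P0, the highest of any receptor gene interaction. The bin held CTCF in all 12 tissue-stages, at a median of 24.7 and at most 64.7 times the input. The block around it, 870 to 1000 kb away, took 57.6% of the interactions and ended at the 1000-kb limit of calling, so any partner farther out was not analysed. At P0, 21 of the 36 partners had not been called in FB earlier, and 8 lay within the gene body.

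Grin2b, on chr6:135713233-136173511 (minus strand), divided its 127 interactions between its own distal gene body and a region past its end. Of these, 54 fell in the block 250 to 480 kb from the TSS, which lies in the gene body apart from the bins at 470 and 480 kb, just past the gene's end. Past the gene, 47 fell in a block 700 to 810 kb away that holds the start site of Emp1, an epithelial membrane protein gene. The most recurrent partner, chr6:135440001-135450000 at 730 kb, had 11, 27, 25, 55, 45 and 32 read pairs in FB from E12.5 to P0, and 9 in MB, 15 in HB and 29 in NT. It was not called in LM, CF or LV, although CTCF was bound there in all 12 tissue-stages at 27.5 to 55.2 times the input. CTCF also lay at -186 bp from the Grin2b gene start (negative values are upstream) in 11 tissue-stages, all but LV, at 12.4 to 45.8 times the input.

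Grik3, on chr4:125490700-125714173 (plus strand), had the shortest distances of the 5, with a median of 310 kb and only 1 of its 372 interactions beyond 500 kb. Upstream, 131 fell in a block from 140 to 370 kb, with no call in the bin at 160 kb, that reaches the start site of Zc3h12a. Downstream, 240 fell in a block from 60 to 500 kb that begins in the gene body. Its partner at 470 kb, chr4:125960001-125970000, was called in 11 tissue-stages, with 23, 30, 30, 43, 45 and 55 read pairs in FB from E12.5 to P0, 27 in MB, 46 in HB and 35 in NT, against 13 in LM and 17 in CF. The contact called most often for Grik3 was thus found in LM and CF too, where it was among 2 and 9 interactions in all.

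The remaining genes gave little. Grik1 reached chr16:87840001-87850000, 440 kb downstream, in MB and in 4 FB stages with 12 to 19 read pairs, a bin with CTCF in all 12 tissue-stages. Grik2 reached chr10:50200001-50210000, 420 kb upstream, in NT and 4 FB stages with 19 to 28 read pairs. All 7 interactions of Grin1 ended at bins with start sites of other genes, such as Npdc1 at 110 kb, at ratios of 2.11 to 3.72, and none was called in a replicate. Gria4 had a partner at 690 kb and another at 830 kb, each in 1 tissue-stage.

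The partners themselves were partly shared between stages. Of the 187 partners at P0, 39 had been called in FB at E12.5, while 40, 19, 21 and 20 appeared at the next 4 stages in order and 48 were called in FB at P0 alone. Grik3 had its partners early, with 22 of 51 called at E12.5 and 17 more at E13.5. Grin2b had 1 of 26 at E12.5 and 9 more at E13.5, and Gria1 had 13 of 33 new at P0. E16.5 and P0 shared 119 partners, 66.5% of those at E16.5 and 63.6% of those at P0. In the non-neural tissues, 22 of the 24 partners were also partners in a neural tissue at E12.5. A total of 120 of the 317 partners were called in 1 tissue-stage only, and 614 of the 996 pooled interactions were called in at least 1 replicate of the same tissue-stage and 356 in both.

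CTCF was bound in the TSS bins of 8 of the 9 genes, and less of their partners carried it than was usual for promoters. A CTCF peak midpoint lay in the partner bin for 33.6% of the 996 interactions (95% Wilson interval 30.8% to 36.6%, counting error only), beside 48.9% for all interactions of protein-coding TSS bins. The interval takes the interactions as independent, although they come from 317 partner bins that recur over tissue-stages, so it is too narrow. The share was 45.7% for Grin2b, 38.4% for Grik3, 32.7% for Gria1, 26.7% for Gria2 and 12.7% for Grin2a. With peaks of at least 10 times the input the share for the 9 genes was 22.9%. At the TSS end, 976 of the 996 interactions had CTCF, beside 69.4% of all, and both ends had it for 32.7%, beside 32.6% of all. Besides the Grin2b peak, Grik2 had a peak at -59 bp from its gene start in all 12 tissue-stages at 6.88 to 24.3 times the input, and Grin2a had peaks at 1668 bp in all 12 and at -2557 bp in 11. Gria2 had a peak at -2724 bp in 11 tissue-stages, all but LV. Gria4 had none in its TSS bin.

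Where the partner bin held a CTCF core that could be read, it pointed towards the TSS in 143 of 187 receptor gene interactions (76.5%), beside 71.5% of all interactions of protein-coding TSS bins. These interactions came from 45 partner bins, of which 33 read towards the TSS, and the same bin recurs over tissue-stages. The core pointed to the TSS in all 24 such interactions of Gria1, in 80 of 101 for Grik3, in 26 of 39 for Gria2 and in 7 of 15 for Grin2b. A core at both ends was rare, with 19 interactions, of which 9 were convergent, 10 pointed the same way and 0 were divergent, and 15 of the 19 belonged to Grin2b. The convergent share was 47.4%, beside 47.6% of all interactions of protein-coding TSS bins. Of 32851 RefSeq promoters, 8.61% held the core, and of the 5 receptor genes with a promoter in the set only Grik2 did.

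Over the 12 tissue-stages the pooled numbers of some genes on other chromosomes ran closely beside those of the receptor genes. The highest Pearson correlations of log2(number + 1) were with Nrn1 and Cdk5r1 for Grik3 (0.99 each), Gnao1 and Atxn1 for Gria2 (0.97 each), Gpr137 for Grin2a (0.98), Clip4 for Grin2b (0.98) and Arpp21 for Gria1 (0.94). Grin2b itself was among the 3 closest to Gria1, at 0.94. These are descriptions over 12 points that share their libraries and totals, with 6 from FB, and were picked as the highest of 5186 to 5586 genes.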

How the data were processed

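H3K4me3 PLAC-seq interaction lists (24 replicates and 12 pooled sets) and CTCF ChIP-seq peak lists were used as deposited. The authors aligned reads to mm10, kept unique, deduplicated pairs, and fitted read pair counts of 10-kb bin pairs with an H3K4me3 peak at either end or both by positive Poisson regression (MAPS). The deposited lists give the observed count, the expected count as a model signal, and the FDR as a q-value, and hold pairs 20 to 1000 kb apart on 19 autosomes with a ratio of observed to expected of at least 2 and an FDR up to 0.00999996. The deposited CTCF peaks give fold enrichment over input as a ratio, called by the authors with MACS2 on pooled libraries and kept if seen in both replicates; P0 had 1 CTCF library, and some CTCF replicates are technical per the labels. The submitters' processing notes also name BWA, SAMtools and Juicer.

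Distinct interactions with an end in a bin holding a TSS (GENCODE M21) were counted per gene and library, scaled to the median library total, and tested as log2(scaled number + 1) with limma 3.58.1 (trend, 2-sided, Benjamini-Hochberg over all genes with a mean scaled number of at least 1, threshold 0.05). Calls on pooled sets and peaks were described without tests. Genes, partners and lists were named by fixed rules: every member, up to 3 called genes per list, the partner called in most tissue-stages, and the 3 most correlated genes. Not every called gene of the lists is reported here. The members and lists were chosen with earlier results of these data known. P-values measure the spread between libraries, whose separate origin from animals was not stated beyond the label of biological replicates. Alternatives covered scaling, added constant, filters, edgeR 4.0.16, TSS definition, replicate block, tissue-stage means, ratio, distance and CTCF thresholds, and leaving out each library; counts were tested on simulated data with 200 changed genes.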

Additional observations from a re-analysis of the deposited data

Results flagged for a closer look

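In 2 of the 19 groups of 4 to 10 libraries examined, a library lay far from the others of its group. The rule flags about 1 group in 20 by chance for normally distributed values, a rate that does not carry over to small numbers with many at 0. The scaled number for Grin2a was 0 in replicate 2 of FB at E12.5, where the other 7 neural libraries lay between 2.17 and 3.77. Without this library the neural against non-neural difference for Grin2a stayed called. In replicate 1 of CF the scaled number for Grin2a was 1.44, which is a lone interaction, while the other 5 non-neural libraries were at 0. The rule always flags such a pattern.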

How the results depend on the processing

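Of the receptor genes, 3 were called in neural against non-neural tissues, and 2 to 3 under every alternative except interactions within 200 kb only, where none was tested and the count was 0. In late against early FB 3 were called, against 5 without scaling, 0 with tissue-stage means as the unit and 0 within 200 kb, where 1 was tested; the remaining alternatives called 3. In FB against the other neural tissues 0 were called under every alternative run, and the alternative within 200 kb was not run. Leaving out each library in turn gave 3 to 3, 3 to 3 and 0 to 0 called in the 3 comparisons. With the replicate number as a block, 3, 3 and 0 were called; the numbers did not pair the libraries, as no correlation of same-numbered deviations exceeded 0.1 (-0.0764 to 0.0727). The 996 pooled interactions became 972 with the gene start only and 816 at a ratio of at least 3; interactions called in both replicates, in the pooled sets or not, numbered 367. The CTCF share of 33.6% became 22.9% for peaks of at least 10 times the input and 36.6% with an overlap of 1 bp. Over all genes, the number called moved by more than 1.5 times: in late against early FB 723 became 1639 without scaling, 1 with tissue-stage means, 242 within 200 kb, 280 with equal numbers of calls, and 226 to 447 without a library of P0, E12.5 or replicate 2 of E16.5; in neural against non-neural tissues 1018 became 193 with means and 579 within 200 kb; in FB against other neural tissues 158 became 286 without scaling, 242 without a filter, 10 with edgeR, 60 with means, 32 with equal numbers of calls, and 45 to 80 without a library of FB or HB. Genes with under 1 interaction per library, 4 to 6 of the 9, could not be tested at this depth.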
